A study of Mus musculus with 12 samples.

Results

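The effect of a high-fat diet on the liver transcriptome was described from 6 of the 12 RNA-seq libraries of a mouse study of diet and exercise: 3 from mice on a normal diet (NC 2, 4 and 5) and 3 from mice on a high-fat diet (HFD 1, 2 and 3), neither of which exercised. All were male C57BL/6 mice, an inbred strain that gains weight and stores fat in the liver on such diets, and all entered at 6 weeks of age with 1 week of adaptation. The high-fat feed was D12492, a purified diet that draws most of its energy from lard. After 8 weeks on that feed its mice were split at random into the HFD group used here and 2 groups that began exercise, and the age of the NC and HFD mice at sampling is not given in the sources used here. The labels enter NC and HFD under both genotype and treatment, but name no allele or transgene, and the groups differ in diet as labelled. The study's NC and HFD groups held 13 and 8 mice, and the labels do not state whether each library is a different animal. The p-values therefore describe a spread among libraries, part of which may be technical. That spread was estimated over all 12 libraries of the study, those of the exercised mice included. Of 55291 genes in the table, 18305 had counts high enough to test, and these make up the comparison.

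The liver secretes most plasma proteins, and its hepatocytes carry a large endoplasmic reticulum (ER) in which those proteins are folded and glycosylated. It also clears amino acids, hormones and drugs, and responds to insulin, growth factors and interferons through receptors on hepatocytes and on the endothelial, stellate and immune cells beside them. Long feeding of a high-fat diet to mice is a common model of fatty liver, which is best known for changes in lipid and drug metabolism. The genes described here lie mostly outside those pathways.

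Levels are CPM (each library's counts scaled to a common total, adjusted by TMM factors) and, within a sentence, run in the order NC 2, 4 and 5 and then HFD 1, 2 and 3. Log2 changes are HFD minus NC from edgeR's quasi-likelihood test, with their standard error (SE) after the ± sign. A gene rose or fell where its Benjamini-Hochberg adjusted p over the 18305 genes was below 0.05, and every adjusted p is from that test unless another tool is named. Total counts ran from 47823607 to 77665729 in NC and from 44373214 to 60308552 in HFD, and all pairs of the 6 libraries differed by more than sampling noise. The first principal component, with 61.8% of the variance in log2 CPM, placed NC at -63.2, -76 and -42.7 and HFD at 71.4, 25.8 and 84.7. HFD 2 thus lay nearest to NC, and NC 5 stood apart from the other libraries on the second component, which held 13.6%. Ribosomal RNA of the mitochondrion took 0.708% to 0.924% of the counts in NC and 1.76% to 3.26% in HFD. Its part in the results was not tested.

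The diet comparison called 2851 genes, 15.6% of those tested: 1534 rose (8.38%) and 1317 fell (7.19%). These shares are the background for the counts in gene lists given below, and a count near them says nothing particular to its list. An unadjusted p under 0.05 was reached by 6352 genes, the groups did not overlap for 46% of all genes, and the median log2 change over all genes was 0.01. Of the 2851 called genes, 2752 had groups that did not overlap. Such a gap in a gene named below thus follows largely from its choice among called genes. Rising genes moved further, with a median log2 change of 1.52 against -0.99 for falling genes, and 473 rose by more than 2 on the log2 scale where 187 fell by as much. Falling genes were the more abundant: they summed to 264054 CPM in NC and 115409 CPM in HFD, and the rising genes to 25289 and 60349 CPM. With fewer libraries the counts dropped, to 488 called genes when HFD 1 was left out, 411 for HFD 3, 581 for NC 4 and 941 for NC 2. Leaving out HFD 2 raised the count to 3554. In the 6 libraries alone, 4928 genes were called, and DESeq2 called 4364. A core of 334 genes, 218 rising and 116 falling, was called in the main test and in 12 alternative fits (those with another set of libraries, scaling, filter or tool, and the removal of the length trend), and most single genes described below come from it.

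Rising and falling genes were counted by kind of transcript. Among 13779 protein-coding genes 6.95% rose and 8.47% fell, whereas among 2517 genes annotated as long noncoding or as still to be checked 15.9% rose and 1.75% fell, with a median log2 change of 0.50. Of 94 immunoglobulin or T-cell receptor segments, 24 rose and 0 fell. With the genes cut into 4 bins of equal size by exon length, 12.8% of the shortest bin rose and 3.25% fell, against 4.70% and 12.4% in the longest bin. By mean level, 8.26% of the lowest of 4 bins rose and 1.88% fell, against 4.74% and 12.4% of the highest. Across genes, the log2 change had a Spearman rho of -0.25 with gene length, as a description, since genes share the same libraries. Removing that trend left 2575 calls, 2212 of them shared with the main test in direction, and changed the share of rising calls from 53.8% to 58.2%.

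**Figure D1:**
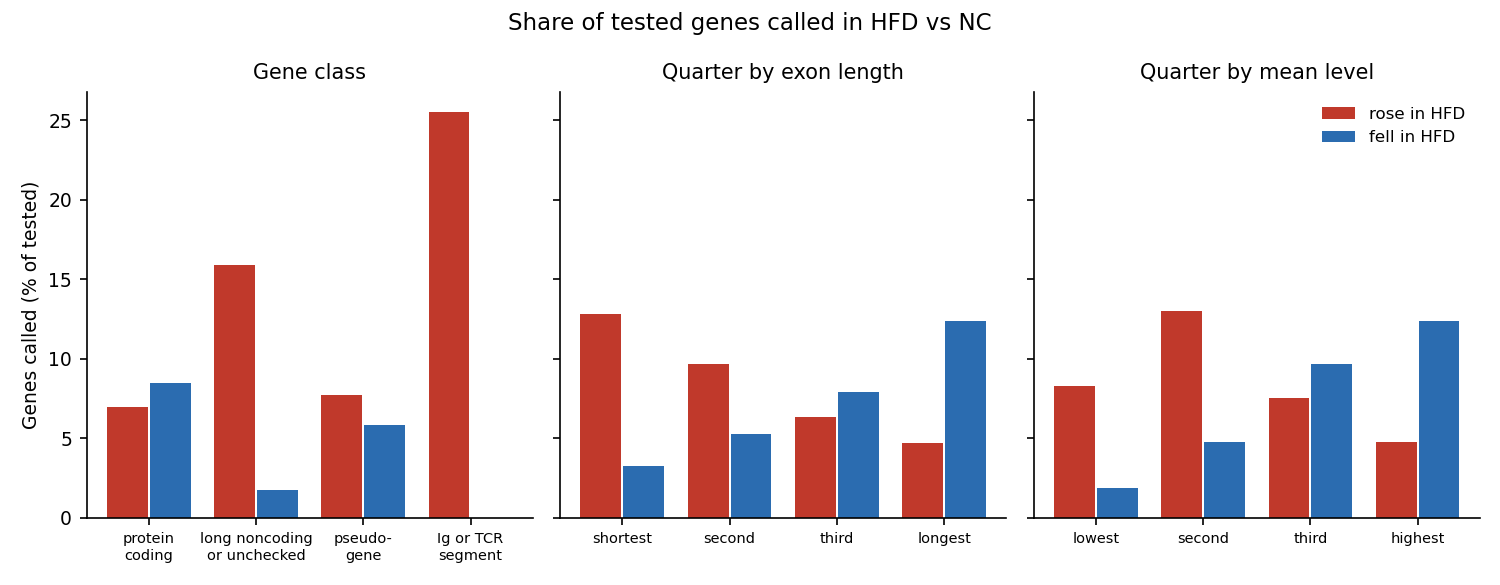
Percent of tested genes that rose or fell on the high-fat diet (adjusted p below 0.05), by kind of transcript, by 4 bins of exon length and by 4 bins of mean level. Genes annotated as long noncoding or as still to be checked and the shortest bin hold more rising than falling genes (15.9% and 12.8% rose), while the longest and the most abundant bins hold more falling ones (12.4% fell in each).

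Among the genes that rose in every fit, several encode proteins of the cell surface and its carbohydrates. Lgals1 encodes galectin-1, a secreted lectin that binds galactose-bearing glycans, and lies at chr15:78926725-78930465 (mm10). It measured 8.57, 10.96 and 15.1 CPM in NC and 87.6, 77.0 and 101 CPM in HFD (log2 change 2.94 ± 0.47, adjusted p = 0.0045). Every HFD value lay far above the highest NC value. Gpc1, a heparan sulfate proteoglycan of the membrane, stood at 4.76, 11.4 and 13.1 CPM against 61.6, 58.7 and 49.0 CPM (2.53 ± 0.40, adjusted p = 0.0042), though 18.9% of its exon bases lie under a gene on the other strand. Clstn3, a calsyntenin of the cell surface, went from 11.8, 18.1 and 18.2 CPM to 55.9, 69.2 and 61.1 CPM (1.95 ± 0.24, adjusted p = 0.0013). In each of these genes the 3 HFD values lay close together and clear of all NC values. Gal3st1, the enzyme that sulfates galactosylceramide to sulfatide, measured 0.558, 0.326 and 0.131 CPM in NC and 5.18, 5.22 and 4.83 CPM in HFD (3.93 ± 0.75, adjusted p = 0.0088). Smpd3, neutral sphingomyelinase 2, which releases ceramide from sphingomyelin, stood at 1.78, 0.566 and 0.237 CPM in NC and 9.52, 6.93 and 9.61 CPM in HFD (3.35 ± 0.57, adjusted p = 0.0055). These were the exception in their pathway: of 27 tested sphingolipid genes, 1 rose (Smpd3) and 1 fell (Galc), with Gal3st1 outside the list.

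Innate immune and lipid-transport genes were also in that core. Tlr12, a Toll-like receptor of rodents that recognises profilin of parasites, lies at chr4:128615443-128618619 and measured 2.60, 2.26 and 2.46 CPM in NC and 23.2, 19.3 and 25.2 CPM in HFD (3.21 ± 0.36, adjusted p = 0.00071). Stap1, an adaptor protein of B cell receptor signalling, rose from 0.669, 0.935 and 1.26 CPM to 14.8, 9.58 and 13.3 CPM (3.70 ± 0.36, adjusted p = 0.00028). Both had HFD values clear of NC and little spread within NC. Cfd, complement factor D or adipsin, measured 0.762, 0.805 and 0.854 CPM in NC and 9.77, 45.0 and 5.56 CPM in HFD (4.63 ± 0.75, adjusted p = 0.0045). Its highest value came from HFD 2, the library that lay nearest to NC over all genes. Fabp2, the fatty acid binding protein best known from the intestine, went from 35.5, 49.2 and 51.0 CPM to 162, 124 and 143 CPM (1.66 ± 0.23, adjusted p = 0.0023). Apoa4, an apolipoprotein of triglyceride-rich particles, measured 24.3, 43.5 and 50.9 CPM in NC and 391.7, 204 and 306 CPM in HFD (2.92 ± 0.59, adjusted p = 0.011). Of its exon bases 69.8% lie under exons on the other strand, of Gm47528, which was not called, and of Gm10680, which was not tested, and the strand setting of the counting is not given in the sources used here. Vldlr, the receptor that takes up very-low-density lipoprotein, rose from 1.99, 1.61 and 3.13 CPM to 11.9, 8.62 and 9.71 CPM (2.16 ± 0.36, adjusted p = 0.0049). Ttc39a, a tetratricopeptide-repeat protein, showed one of the largest changes, from 0.297, 0.5003 and 0.316 CPM to 7.98, 4.49 and 5.06 CPM (3.99 ± 0.46, adjusted p = 0.00097).

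The genes that fell in every fit included receptors and transporters of the hepatocyte surface. Egfr, the epidermal growth factor receptor, lies at chr11:16752203-16918158 and measured 1404, 408 and 905 CPM in NC and 83.0, 174 and 81.5 CPM in HFD (-3.01 ± 0.50, adjusted p = 0.0049). Its NC values spread widely, but the lowest of them was still above the highest HFD value. Lifr, the receptor of leukemia inhibitory factor, lies at chr15:7090614-7197489 and fell from 358, 422 and 484 CPM to 75.8, 132 and 76.1 CPM (-2.15 ± 0.30, adjusted p = 0.0023). Slco1a1, an organic anion transporter that takes up bile acids and steroid conjugates, dropped from 546, 723 and 521 CPM to 19.8, 54.5 and 17.8 CPM (-4.28 ± 0.70, adjusted p = 0.0045). For Egfr, Lifr and Slco1a1 alike, HFD 2 held the highest of the 3 HFD values. Serpine2, an inhibitor of thrombin and urokinase also called protease nexin-1, stood at 27.7, 45.2 and 36.5 CPM against 3.33, 8.49 and 3.29 CPM (-2.86 ± 0.41, adjusted p = 0.0026). Adgrf1, an adhesion G protein-coupled receptor, went from 7.16, 9.20 and 5.97 CPM to 0.214, 0.311 and 0.143 CPM (-5.08 ± 0.79, adjusted p = 0.0038). Avpr1a, the vasopressin receptor of hepatocytes, measured 32.6, 45.9 and 12.4 CPM in NC and 6.48, 7.54 and 6.71 CPM in HFD (-2.13 ± 0.35, adjusted p = 0.0045). No HFD value of these 3 genes reached an NC value.

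Other genes of that falling core act inside the cell. Elovl3, which elongates very long chain fatty acids, measured 281, 469 and 118 CPM in NC and 28.2, 48.3 and 42.9 CPM in HFD (-2.86 ± 0.40, adjusted p = 0.0022). Myo1e, a class I myosin, fell from 92.3, 95.0 and 82.0 CPM to 35.3, 37.3 and 28.1 CPM (-1.42 ± 0.17, adjusted p = 0.001), and Ablim3, an actin-binding LIM protein, fell by 1.66 ± 0.20 (adjusted p = 0.001). Their NC and HFD values lay far apart relative to the spread within a group. Smad9, a transducer of bone morphogenetic protein signals, stood at 23.6, 18.2 and 24.1 CPM against 4.26, 5.56 and 1.72 CPM (-2.52 ± 0.47, adjusted p = 0.0082). Cad, which carries out the first steps of pyrimidine synthesis, dropped from 16.8, 35.6 and 15.8 CPM to 7.08, 7.98 and 6.85 CPM (-1.64 ± 0.29, adjusted p = 0.0063). Med12, a subunit of the Mediator kinase module, fell by 1.70 ± 0.28 on the log2 scale (adjusted p = 0.005).

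**Figure D2:**
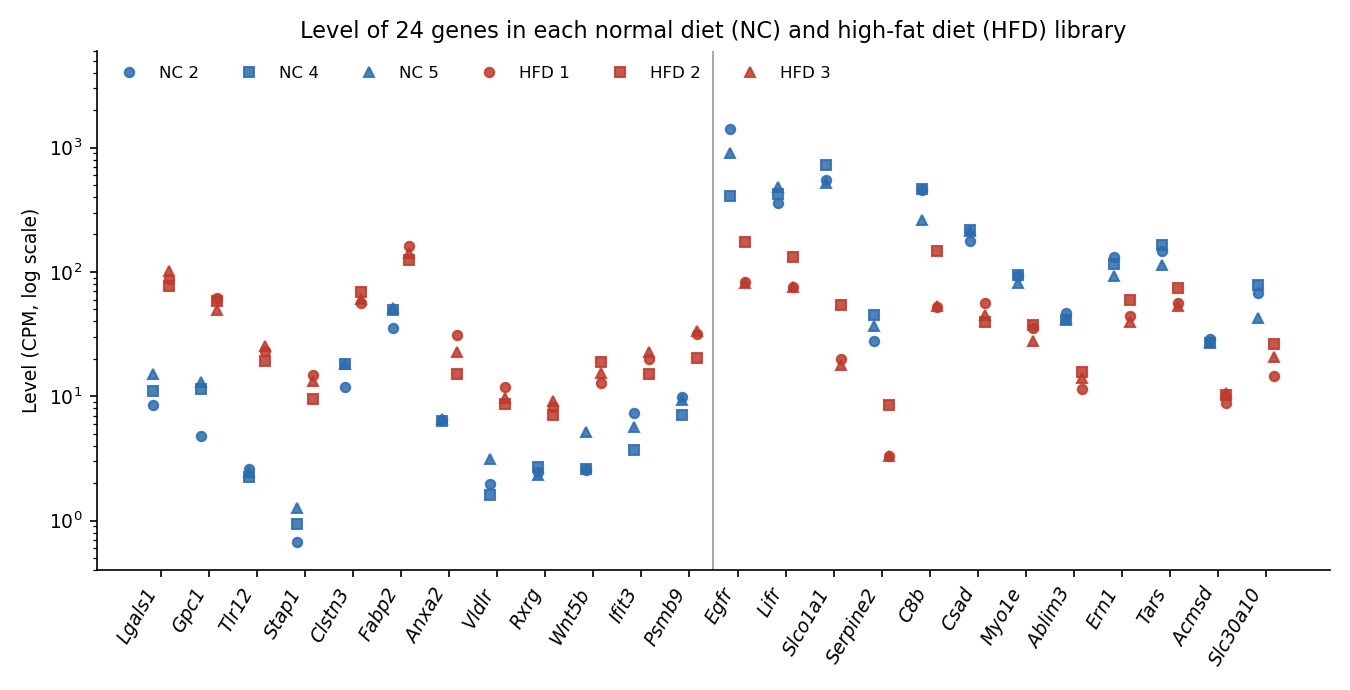
CPM on a log axis in each of the 3 NC and 3 HFD libraries (points, 1 per library) for 24 genes called in every fit, rising on the left and falling on the right. The 3 HFD values stand clear of the 3 NC values in each gene, as for Lgals1 (77.0 to 101 against 8.57 to 15.1 CPM) and Egfr (81.5 to 174 against 408 to 1404 CPM). The genes were chosen from those called, and 2752 of the 2851 called genes have groups that do not overlap.

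Of 32 tested genes for ER folding and quality control, 15 fell, 17 were not called and 0 rose, with a median log2 change of -0.85 against 0.01 over all genes. Of 32 genes for entry into the ER and N-glycosylation, 10 fell and 1 rose (median -0.39), and of 24 for vesicle transport onward to the Golgi, 4 fell and 0 rose (median -0.27). Hspa5, the major chaperone of the ER lumen, also called BiP, lies at chr2:34771970-34777547. It measured 1108, 2929 and 1554 CPM in NC and 524, 1048 and 349 CPM in HFD (-1.54 ± 0.41, adjusted p = 0.029). Canx, the lectin chaperone calnexin, went from 574, 723 and 523 CPM to 280, 432 and 202 CPM (-0.99 ± 0.27, adjusted p = 0.028). HFD 2 was the highest HFD library for both, and close to the lowest NC value for Hspa5. Dnajc3, a cochaperone of BiP, fell by 0.93 ± 0.27 (adjusted p = 0.037) and Pdia6, a disulfide isomerase, by 1.10 ± 0.31 (adjusted p = 0.033). Of 4 genes listed as sensors and regulators of the unfolded protein response 3 fell, and Eif2ak3, which encodes the sensor PERK, was not called at -0.30 ± 0.28 (adjusted p = 0.45). Ern1, which encodes the sensor IRE1, measured 131, 117 and 92.7 CPM in NC and 44.6, 59.0 and 39.9 CPM in HFD (-1.25 ± 0.22, adjusted p = 0.0072). Atf6, the membrane-bound sensor of the same response, fell by 1.02 ± 0.23 (adjusted p = 0.016) and Xbp1, the factor that IRE1 activates by splicing, by 0.70 ± 0.20 (adjusted p = 0.037). Ern1 alone of the folding list was called in every fit: without HFD 1 or without HFD 3 the list had 1 falling gene, without NC 4 it had 2, without NC 2 it had 8 and without HFD 2 it had 20 (13 without NC 5). The chaperones Hspa5, Hyou1, Canx, Dnajc3 and Pdia6 had adjusted p values of 0.056 to 0.13 without HFD 1 and of 0.055 to 0.16 without HFD 3.

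Outside that list, Uggt1, the sensor that returns misfolded glycoproteins to calnexin, fell from 128, 181 and 102 CPM to 50.5, 70.7 and 41.0 CPM (-1.34 ± 0.25, adjusted p = 0.0082). Retreg1, a receptor for the autophagy of ER membranes, measured 134, 97.7 and 160 CPM in NC and 49.1, 44.5 and 49.5 CPM in HFD (-1.45 ± 0.21, adjusted p = 0.0028). Both kept their calls in every fit. Sec61a1, the channel through which proteins enter the ER, went from 174, 220 and 130 CPM to 64.8, 89.7 and 45.8 CPM (-1.39 ± 0.29, adjusted p = 0.013). The lists for entry and for vesicle transport had 0 falling genes without HFD 1, HFD 3 or NC 4, and 3 and 2 without NC 2.

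Genes of this group are known to carry an ER stress element in their promoters, CCAAT and CCACG with 9 bases between them, at which ATF6 and NF-Y bind. The element was searched on both strands of the 250 bases before each start site in the RefSeq promoter table (GRCm38.p6). It stood in 9 of the 26 ER folding genes that matched the table (34.6%), and in 4 of the 11 that fell (36.4%). Hsp90b1, Calr, Creld2, Syvn1 and Derl3 also hold it and were not called. Over all tested genes with a promoter in the table it stood in 20 of 11928 (0.168%), and over all 27025 promoters in 0.13%. Among all 961 matched genes that fell it stood in the same 4 (0.416%). The list holds genes known for the element, so its higher share follows from the list and says nothing about the diet. The 4 falling genes with the element are shown here, 5′ to 3′ on the strand of the gene. Capitals mark the element from its first base to its last. The window of Hspa5 is inside the span of the gene in the deposited table, upstream of the RefSeq start, and the other windows lie outside their genes' spans. A match describes letters only, and binding was not measured.
Hspa5 (chr2:34772020-34772048, plus strand): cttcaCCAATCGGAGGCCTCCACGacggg
Canx (chr11:50325795-50325823, minus strand): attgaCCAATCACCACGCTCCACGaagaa
Dnajc3 (chr14:118937822-118937850, plus strand): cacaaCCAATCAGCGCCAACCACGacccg
Pdia6 (chr12:17266486-17266514, plus strand): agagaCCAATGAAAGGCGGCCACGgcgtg

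Of 20 cytosolic aminoacyl-tRNA synthetases 4 fell and 0 rose (median -0.34), among the former Tars, which charges threonine, at 148, 164 and 115 CPM in NC and 56.8, 74.4 and 52.9 CPM in HFD (-1.21 ± 0.20, adjusted p = 0.0052). Of 19 targets of ATF4, the factor induced by amino acid shortage and ER stress, 3 rose and 1 fell (median 0.55). Asns, asparagine synthetase, fell from 5.08, 2.78 and 0.973 CPM to 0.253, 0.178 and 0.2002 CPM (-3.79 ± 0.88, adjusted p = 0.018), while Vldlr, Phgdh and Ddit3 rose. The synthetase list had 1 falling gene, Tars, without HFD 1, HFD 3 or NC 4, and the ATF4 list then had 1 rising gene and no falling one, as it also had without NC 2.

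Among plasma proteins that are secreted through the ER, the 3 fibrinogen chains fell, with log2 changes of -1.42 ± 0.41 for Fga, -1.21 ± 0.36 for Fgb and -1.15 ± 0.34 for Fgg (adjusted p = 0.038, 0.04 and 0.038), yet their groups overlapped. Fga, for instance, measured 8739, 5617 and 3755 CPM in NC and 1605, 3950 and 1204 CPM in HFD, so that HFD 2 lay above NC 5. They were the 3 called genes of 33 for coagulation and fibrinolysis (9.09% fell, against 7.19% of all genes tested), a list which had a median log2 change of -0.46. Of 36 complement genes 6 fell and 2 rose (median -0.62), and among the 9 genes of the terminal pathway 4 fell and 0 rose (median -1.12). C8b, a subunit of the membrane attack complex, dropped from 456, 462 and 261 CPM to 52.7, 147 and 52.9 CPM (-2.22 ± 0.41, adjusted p = 0.0081) and was called in every fit. C9, which forms the pore, fell by 1.12 ± 0.35 (adjusted p = 0.047), while C3, the central component, was at -1.19 ± 0.48 and was not called (adjusted p = 0.1). Alb, serum albumin, fell by 0.90 ± 0.25 (adjusted p = 0.031). Fga, Fgb, Fgg, C9 and Alb had adjusted p values of 0.11 to 0.18 when HFD 1 was left out, 0.14 to 0.18 for HFD 3, 0.061 to 0.16 for NC 2 and 0.088 to 0.097 for NC 4. Without NC 5, 3 of the 5 kept their calls (0.027 to 0.072). The coagulation list had 0 falling genes without HFD 1, HFD 3, NC 2 or NC 4 and 11 without HFD 2, and the complement list had 2 without HFD 1, HFD 3 or NC 4, 3 without NC 2 and 14 without HFD 2.

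Some transcription factors that maintain hepatocyte identity fell, and the others did not pass the main test. Of 25 such genes, 6 fell (among them Hnf4a, Foxa1, Foxa3, Onecut1 and Nr5a2) and 0 rose, with a median log2 change of -0.22. Hnf4a, a nuclear receptor that binds most hepatocyte promoters, measured 1048, 980 and 1114 CPM in NC and 495, 716 and 545 CPM in HFD (-0.84 ± 0.19, adjusted p = 0.016). Onecut1, also named HNF6, went from 22.6, 12.9 and 72.2 CPM to 2.80, 7.09 and 2.37 CPM (-3.14 ± 0.76, adjusted p = 0.021). The NC values of Onecut1 spread widely, and those of Hnf4a lay close together. Foxa1, a pioneer factor, fell by 1.22 ± 0.28 (adjusted p = 0.018). Without HFD 1 or without HFD 3 no gene of the list fell, and Hnf4a, Foxa1 and Onecut1 then had adjusted p values of 0.07 to 0.089 and of 0.081 to 0.11. Without NC 4, 3 genes of the list fell, and 2 of those 3 factors kept their calls (adjusted p up to 0.074). Without NC 5 Onecut1 was not called (adjusted p = 0.063), and 5 genes of the list fell while 2 rose. The list was mixed in other fits too, with 7 falling and 3 rising in the 6 libraries alone and 6 and 3 with DESeq2. In the main test 9 of the 25 genes had a change above 0.

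Nuclear receptors moved both ways. Of 38 genes of the receptors and their coregulators 5 rose (13.2%) and 6 fell (15.8%), against 8.38% and 7.19% of all genes tested. Rxrg, a retinoid X receptor, measured 2.45, 2.72 and 2.33 CPM in NC and 8.21, 7.07 and 9.15 CPM in HFD (1.71 ± 0.32, adjusted p = 0.0084). Esrrg, an estrogen-related receptor outside the list, rose by 1.69 ± 0.23 (adjusted p = 0.0022) and Nfib, a nuclear factor I protein, by 1.05 ± 0.17 (adjusted p = 0.0046). These 3 genes kept their calls in every fit, while the falling genes of the list came to 1 without HFD 1, 0 without HFD 3 and 2 without NC 2 or NC 4. Among 21 clock genes 2 rose (Per3 among them) and 4 fell (Clock, Npas2, Nr1d1 and Bhlhe41). Nr1d1, the repressor REV-ERB alpha, went from 96.7, 80.9 and 37.3 CPM to 29.3, 22.5 and 16.2 CPM (-1.66 ± 0.36, adjusted p = 0.014). Npas2, a partner of BMAL1, fell by 3.52 ± 0.76 (adjusted p = 0.014), whereas Arntl, which encodes BMAL1, was at -1.80 and was not called (adjusted p = 0.061). NC 5 was the lowest NC library for both Nr1d1 and Npas2. Without HFD 3, Npas2, Clock and Nr1d1 had adjusted p values of 0.08 to 0.11, without NC 4 of 0.052 to 0.12, without HFD 1 of 0.038 to 0.12 and without NC 2 of 0.031 to 0.07. Of the clock list 7 rose and 4 fell without NC 5, 2 rose and 5 fell without HFD 2, 1 rose and 0 fell without HFD 3, and 1 rose and 1 fell without HFD 1, NC 2 or NC 4. The time of day at sampling is not given in the sources used here.

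Insulin and growth factor signalling had more falling than rising genes in the main test. Of 31 tested insulin signalling genes 8 fell, Egfr among them, and 0 rose (median -0.32). Once the trend with gene length was removed, 5 fell and 2 rose, with a median of -0.07. Irs1, an adaptor of the insulin receptor, measured 26.3, 38.1 and 14.1 CPM in NC and 3.97, 9.22 and 3.52 CPM in HFD (-2.24 ± 0.55, adjusted p = 0.022), though 30.9% of its exon bases lie under a gene on the other strand. Irs2, the other main adaptor in liver, went from 31.0, 43.6 and 46.4 CPM to 15.1, 20.1 and 5.76 CPM (-1.56 ± 0.36, adjusted p = 0.018). Insr, the receptor itself, was at -0.34 and was not called (adjusted p = 0.37). Egfr, the epidermal growth factor receptor, was counted in this list as well as in the growth factor list. It was the 1 falling gene without HFD 1, and no other gene of the insulin list was called in every fit. With each library left out the list had 1 falling gene (without HFD 1), 2 (without HFD 3, NC 2 or NC 4), 5 (without NC 5) or 9 (without HFD 2), and the higher adjusted p of Irs1 and Irs2 was 0.094 when HFD 1 was left out, 0.11 for HFD 3, 0.053 for NC 2 and 0.081 for NC 4.

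Among 44 growth factor receptors and ligands 10 fell and 6 rose (median -0.27). Once the trend with gene length was removed, 7 fell and 6 rose, with a median of -0.03. Klb, the coreceptor that lets hepatocytes respond to FGF15 and FGF21, measured 34.0, 34.5 and 36.5 CPM in NC and 10.5, 20.4 and 10.04 CPM in HFD (-1.36 ± 0.29, adjusted p = 0.014), and its partner Fgfr4 fell by 0.75 ± 0.21 (adjusted p = 0.034). Tgfa, a ligand of the EGF receptor, fell by 0.93 ± 0.21 (adjusted p = 0.016), while Egf was not called at 0.15 ± 0.35 (adjusted p = 0.79). The receptors of endothelial growth factors Kdr, Flt4 and Tek fell, with log2 changes of -1.29 ± 0.37, -1.404 ± 0.43 and -1.18 ± 0.34 (adjusted p = 0.035, 0.044 and 0.037), and Kdr went from 53.5, 51.4 and 41.0 CPM to 18.3, 25.9 and 15.3 CPM. Kdr is also a marker of sinusoidal endothelial cells, whose marker list was lower in HFD, as given below. In bulk liver, fewer cells of a type and less RNA per cell cannot be told apart. Without HFD 1 or HFD 3 the list had 1 falling gene (Egfr) and 0 rising ones, without NC 4 it had 2 and 0, and without NC 2 it had 3 and 1.

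Of 33 Wnt signalling genes 7 rose and 6 fell, and 8 rose and 2 fell once the trend with gene length was removed. The counts came to 1 and 0 without HFD 1, HFD 3 or NC 4, to 2 and 1 without NC 2, to 5 and 4 without NC 5 and to 7 and 8 without HFD 2. Wnt5b, a noncanonical ligand, rose in every fit, from 2.56, 2.61 and 5.13 CPM to 12.9, 18.9 and 15.3 CPM (2.18 ± 0.36, adjusted p = 0.0046). The ligand Wnt4 rose by 1.75 ± 0.45 (adjusted p = 0.025) and the nuclear factor Lef1 by 2.40 ± 0.58 (adjusted p = 0.021). The receptor Fzd7 fell by 1.43 ± 0.40 (adjusted p = 0.033) and Ctnnb1, which encodes beta-catenin, by 1.16 ± 0.36 (adjusted p = 0.046), while the target Axin2 was at -0.20 and was not called. Wnt4, Lef1, Fzd7 and Ctnnb1 had adjusted p values of 0.07 to 0.16 when HFD 1 was left out, 0.1 to 0.19 for HFD 3, 0.077 to 0.14 for NC 4, 0.018 to 0.11 for NC 2 and 0.031 to 0.065 for NC 5.

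Among nuclear genes of the mitochondrion, of 73 genes of the respiratory chain and ATP synthase 9 rose and 0 fell (median 0.69), and of 77 mitochondrial ribosomal proteins 10 rose and 3 fell (median 0.52). The rising shares, 12.3% and 13.0%, stand against 8.38% of all genes tested and 12.8% of the shortest bin by exon length. Ndufa2, a subunit of complex I, went from 37.1, 34.1 and 44.8 CPM to 96.8, 77.1 and 112 CPM (1.30 ± 0.41, adjusted p = 0.049), and Cox8a, of complex IV, rose by 1.19 ± 0.36 (adjusted p = 0.042). The calls depended on the libraries: the respiratory list had 0 rising genes without HFD 1, HFD 3, NC 2 or NC 4, 5 without NC 5 and 15 without HFD 2. It had 3 once the trend with gene length was removed, and 49 rising and 1 falling in the 6 libraries alone. The mitochondrial ribosome list had 0 rising genes without HFD 1, HFD 3, NC 2 or NC 4, 6 after removal of the length trend and 46 in the 6 libraries alone. Of 80 cytosolic ribosomal proteins 0 were called in the main test (median 0.37), while the 6 libraries alone gave 19 rising and 1 falling.

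A few small mitochondrial proteins rose in every fit. Mtln, a micropeptide of the inner membrane that supports fatty acid oxidation, measured 3.12, 2.22 and 3.73 CPM in NC and 12.3, 9.98 and 14.1 CPM in HFD (2.00 ± 0.38, adjusted p = 0.0085). Coa6, an assembly factor of complex IV, rose from 11.8, 11.5 and 15.9 CPM to 32.8, 27.2 and 34.4 CPM (1.27 ± 0.24, adjusted p = 0.0097). The mitochondrially encoded mt-Nd4l, a complex I subunit, went from 10.5, 8.61 and 12.4 CPM to 54.3, 27.4 and 53.6 CPM (2.10 ± 0.34, adjusted p = 0.0043), and 5 of the 17 tested genes of the mitochondrial chromosome rose. Lars2, the mitochondrial leucyl-tRNA synthetase, rose from 556, 551 and 873 CPM to 1788, 1600 and 1707 CPM (1.36 ± 0.28, adjusted p = 0.012), beside the higher share of mitochondrial ribosomal RNA in HFD, whose part was not tested. Lars2 reached an adjusted p of 0.05 without NC 2 and of 0.058 without NC 4.

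Of 42 proteasome genes 33 were not called. The 3 that rose (7.14%, against 8.38% of all genes tested) were the interferon-inducible catalytic subunits Psmb8, Psmb9 and Psmb10, while the 6 that fell (14.3%, against 7.19% of all genes tested) were Psmb7, Psmd1, Psmd2, Psmd12, Psmd14 and Psme4, which are constitutive subunits and an activator. The difference between these kinds was not tested. Psmb9 measured 9.95, 7.05 and 9.32 CPM in NC and 31.5, 20.2 and 33.2 CPM in HFD (1.69 ± 0.26, adjusted p = 0.0038) and was called in every fit. Psmb8 and Psmb10 rose by 1.34 ± 0.32 and 1.01 ± 0.28 (adjusted p = 0.02 and 0.03), with adjusted p values up to 0.095 when HFD 1 was left out, 0.12 for HFD 3, 0.079 for NC 2 and 0.11 for NC 4. No subunit fell without HFD 1, HFD 3 or NC 4, and 1 fell without NC 2.

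Sulfur amino acid and tryptophan metabolism changed at single steps. Csad, which makes taurine from cysteine sulfinate, fell in every fit from 176, 219 and 214 CPM to 56.0, 39.8 and 44.9 CPM (-2.11 ± 0.27, adjusted p = 0.0014). Cbs, which commits homocysteine to cysteine, went from 545, 618 and 379 CPM to 240, 256 and 258 CPM (-1.03 ± 0.22, adjusted p = 0.013). Bhmt, which returns homocysteine to methionine with betaine, rose from 1397, 1053 and 722 CPM to 2428, 2252 and 3235 CPM (1.32 ± 0.30, adjusted p = 0.018). Of the 32 genes of methionine and one-carbon metabolism 3 rose (9.38%) and 4 fell (12.5%), against 8.38% and 7.19% of all genes tested, so the list had no common direction. Cbs and Bhmt had adjusted p values of 0.056 to 0.086 without HFD 1, HFD 3 or NC 4, while Csad was called in each case. In the tryptophan pathway to NAD, 1 of 22 genes rose (4.55%) and 3 fell (13.6%). Acmsd, which diverts the pathway away from NAD, fell in every fit from 28.8, 26.8 and 27.2 CPM to 8.89, 10.3 and 10.6 CPM (-1.47 ± 0.24, adjusted p = 0.0045). Tdo2, the first enzyme of the pathway, fell by 1.08 ± 0.29 (adjusted p = 0.028) and Kynu, kynureninase, by 1.19 ± 0.24 (adjusted p = 0.012), with adjusted p values up to 0.11 when HFD 1 was left out, 0.13 for HFD 3, 0.055 for NC 2, 0.079 for NC 4 and 0.07 for NC 5.

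Transporters and conjugating enzymes moved member by member. Of 52 hepatocyte membrane transporters 7 rose (13.5%, against 8.38% of all genes tested) and 10 fell (19.2%, against 7.19%), with a median log2 change of 0.02. The related organic anion transporters Slc22a27 and Slc22a28 went in opposite directions in every fit: Slc22a27 from 0.669, 0.457 and 1.34 CPM to 11.5, 11.6 and 9.40 CPM (3.69 ± 0.57, adjusted p = 0.0038), and Slc22a28 from 15.2, 27.2 and 23.8 CPM to 2.78, 6.47 and 1.56 CPM (-2.62 ± 0.49, adjusted p = 0.0082). Reads can be shared between such close relatives, so their single values are uncertain. Slco2a1, a prostaglandin transporter, measured 91.7, 145 and 98.8 CPM in NC and 29.7, 36.4 and 30.0 CPM in HFD (-1.80 ± 0.23, adjusted p = 0.0013). Slc30a10, which exports manganese, dropped from 68.0, 78.7 and 42.5 CPM to 14.7, 26.6 and 20.6 CPM (-1.61 ± 0.25, adjusted p = 0.0038). Abcb1a, a drug efflux pump, rose from 3.33, 2.70 and 4.15 CPM to 12.6, 9.36 and 8.84 CPM (1.59 ± 0.26, adjusted p = 0.0045). These 3 transporters kept their calls in every fit, and the list came to 3 rising and 4 falling genes without HFD 1 or HFD 3, 4 and 6 without NC 2, 3 and 7 without NC 4 and 4 and 7 without NC 5. Of 14 glucuronosyltransferases 5 fell and 0 rose (median -0.79), among them Ugt2b1, from 549, 629 and 539 CPM to 159, 224 and 146 CPM (-1.70 ± 0.26, adjusted p = 0.0038). Of these enzymes 2 fell without HFD 1, 3 fell without HFD 3 or NC 4, and 10 fell without HFD 2. Their near-identical copies make the single values uncertain.

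Of 29 selenoproteins and glutathione peroxide genes 5 rose and 1 fell. Gpx4, the enzyme that reduces lipid peroxides, went from 122, 123 and 142 CPM to 380, 284 and 469 CPM (1.55 ± 0.38, adjusted p = 0.022), and Sod3, the extracellular superoxide dismutase, from 9.95, 10.1 and 8.86 CPM to 40.02, 25.4 and 34.8 CPM (1.79 ± 0.38, adjusted p = 0.013). For both, every HFD library lay above every NC library. Neither was called without HFD 1, HFD 3 or NC 4 (adjusted p from 0.051 to 0.099), and the list then had 0 rising genes. Without NC 2, 2 genes of the list rose, and 4 rose without NC 5.

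Of 14 annexins and S100 proteins, which bind membranes and calcium, 7 rose, 7 were not called and 0 fell (median 1.31), whereas of 11 tubulins 0 rose and 2 fell (median -0.42). Anxa2 measured 6.43, 6.33 and 6.56 CPM in NC and 31.3, 15.2 and 22.6 CPM in HFD (1.84 ± 0.24, adjusted p = 0.0017), and S100a11 went from 2.03, 1.44 and 2.59 CPM to 14.1, 5.96 and 11.9 CPM (2.39 ± 0.47, adjusted p = 0.01). Tpm2, beta-tropomyosin, rose from 2.16, 4.33 and 6.01 CPM to 23.2, 17.9 and 24.1 CPM (2.38 ± 0.48, adjusted p = 0.011). HFD 2 was the lowest HFD library for each of these 3 genes and still above every NC library, and the 3 were called in every fit. Of the annexin and S100 genes 2 rose in the fits without HFD 1, HFD 3, NC 2 or NC 4.

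Of 50 extracellular matrix genes 15 rose and 0 fell, with a median log2 change of 0.67. Col1a1 and Col1a2, the chains of type I collagen, rose by 1.99 ± 0.41 and 1.59 ± 0.34 (adjusted p = 0.012 and 0.013), Col1a1 from 2.40, 1.96 and 4.46 CPM to 16.7, 7.54 and 11.04 CPM. Leaving out HFD 1 gave 4 rising genes, HFD 3 gave 7, NC 2 gave 8, NC 4 gave 3 and HFD 2 gave 19, and the 2 collagen genes then had adjusted p values up to 0.065 without HFD 1, 0.051 without NC 2 and 0.057 without NC 4. Markers of stellate cells and fibroblasts, which make these proteins and share Col1a1, Col3a1 and Dcn with the list, summed to 142, 160 and 152 CPM in NC and 375, 267 and 314 CPM in HFD, and 7 of 12 rose (4 without HFD 1, HFD 3, NC 2 or NC 4). Colec11, a stellate-cell lectin, rose from 13.7, 12.7 and 12.2 CPM to 32.0, 26.4 and 29.1 CPM (1.18, called in every fit). The part of those cells in the matrix result was not tested.

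Of 49 tested interferon-stimulated genes, 14 rose, 35 were not called and 0 fell, with a median log2 change of 0.45. Ifit1, which binds viral RNA lacking cap methylation, measured 5.32, 3.15 and 4.52 CPM in NC and 12.4, 13.4 and 16.1 CPM in HFD (1.69 ± 0.32, adjusted p = 0.0082). Xaf1, a proapoptotic factor, went from 4.48, 2.31 and 3.27 CPM to 9.23, 7.49 and 11.5 CPM (1.49 ± 0.26, adjusted p = 0.0064). Ifit1, Ifit3, Isg15 and Xaf1 were called in every fit. Rsad2, the antiviral enzyme viperin, rose by 0.98 ± 0.22 (adjusted p = 0.016). Rsad2 had an adjusted p of 0.057 without HFD 1, 0.082 without HFD 3 and 0.068 without NC 4. The list had 6 rising genes without HFD 1, 4 without HFD 3 or NC 4 and 8 without NC 2.

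The core of the interferon response element, GAAANNGAA on either strand, was searched in the same promoters. It stood in 19 of 36 matched interferon-stimulated genes (52.8%), 6 of them among the 10 matched genes that rose, against 7.81% of all tested genes and 8.18% of the whole table. It stood in 8.74% of the promoters of all 881 matched genes that rose. Stretches from 4 rising genes are shown as examples, 5′ to 3′ on the strand of the gene (GRCm38.p6, RefSeq), with every base of a match in capitals. In Ifit1, Ifit3 and Rsad2 the core lies on the other strand and so reads as its reverse complement, and matches overlap in Ifit1 and Isg15. The window of the neighbouring Ifit3b is identical in sequence to that of Ifit3, and reads of such near-identical genes can be shared between them.
Ifit1 (chr19:34640765-34640828, plus strand): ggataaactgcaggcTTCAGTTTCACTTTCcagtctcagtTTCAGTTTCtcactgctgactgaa
Ifit3 (chr19:34583359-34583450, plus strand): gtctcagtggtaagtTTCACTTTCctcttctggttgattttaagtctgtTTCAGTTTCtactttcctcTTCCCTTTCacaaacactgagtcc
Isg15 (chr4:156200861-156200911, minus strand): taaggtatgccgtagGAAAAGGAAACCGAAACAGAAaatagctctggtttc
Rsad2 (chr12:26456548-26456586, minus strand): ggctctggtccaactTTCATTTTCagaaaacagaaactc

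In antigen presentation, the called genes of the main test were all in the class I list, which includes Psmb8, Psmb9 and Psmb10 given above. Of 16 class I genes 9 rose and 0 fell (median 0.72), and of 8 class II genes 0 were called (median 0.44). All 8 class II genes had changes above 0, and 2 of them rose without HFD 2. The difference between the branches was not tested. H2-Q4, a nonclassical class I gene, measured 23.7, 19.2 and 24.03 CPM in NC and 74.2, 42.8 and 74.9 CPM in HFD (1.52 ± 0.25, adjusted p = 0.0049), although 19.1% of its exon bases lie under a gene on the other strand and its relatives are near identical. In the fits without HFD 1, HFD 3, NC 2 or NC 4, 2 genes of the class I list rose, H2-Q4 and Psmb9, and 5 rose without NC 5. Among 49 chemokines, cytokines and their receptors 13 rose and 3 fell (median 0.40). Ccr2, the receptor that guides monocytes into tissue, stood at 1.64, 1.65 and 1.68 CPM in NC and 7.43, 2.47 and 7.58 CPM in HFD (1.81 ± 0.44, adjusted p = 0.021), and Cx3cr1, another monocyte receptor, rose by 1.91 ± 0.48 (adjusted p = 0.024). HFD 2 lay between NC and the other HFD libraries for Ccr2. Without HFD 1, HFD 3, NC 2 or NC 4 neither was called (adjusted p from 0.067 to 0.11). The list had 1 rising gene without HFD 1 or NC 4, 2 without HFD 3 or NC 2 and 5 without NC 5. Ccr2 and Cx3cr1 are also among 12 markers of lipid-associated or recruited macrophages, of which 3 rose and 2 fell. The sums of those markers overlapped, at 106, 69.6 and 61.5 CPM in NC and 104, 58.2 and 70.1 CPM in HFD.

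**Figure D3:**
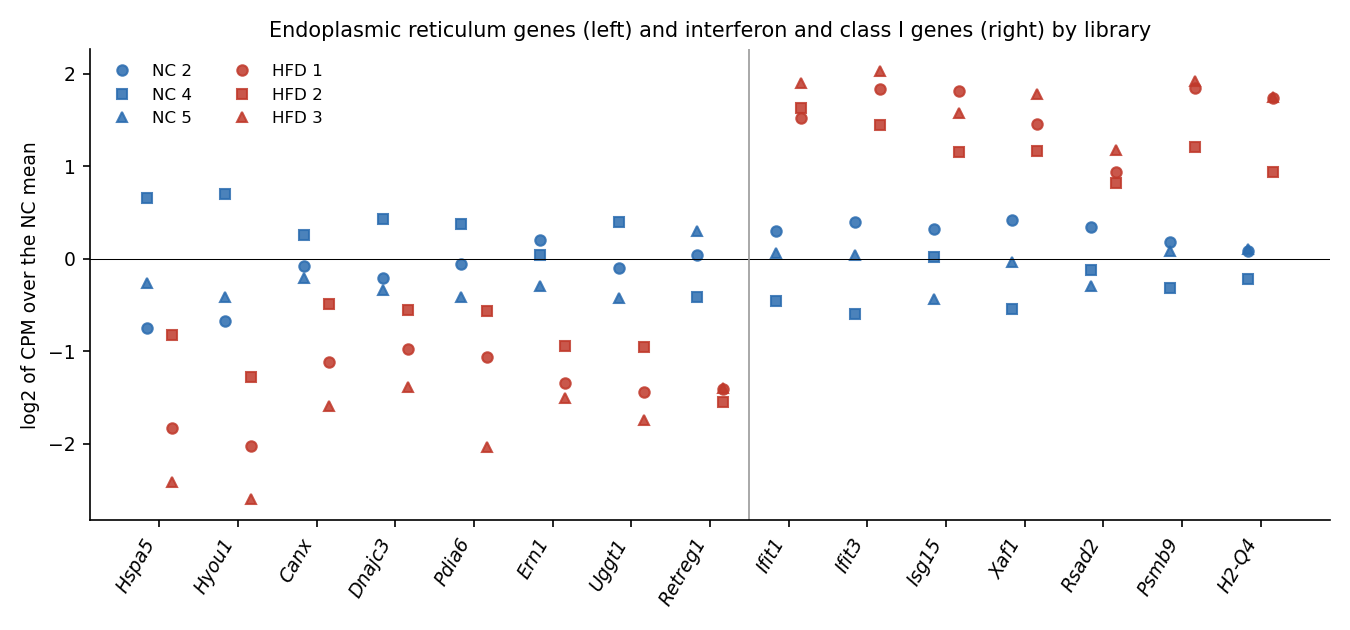
Log2 of the CPM in each library over the NC mean for 8 ER genes (left) and 7 interferon and class I genes (right) (points, marked by library). The ER genes lie below the NC mean in each HFD library, nearest to it in HFD 2 for all but Retreg1, and the interferon and class I genes lie above it.

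**Figure D4:**
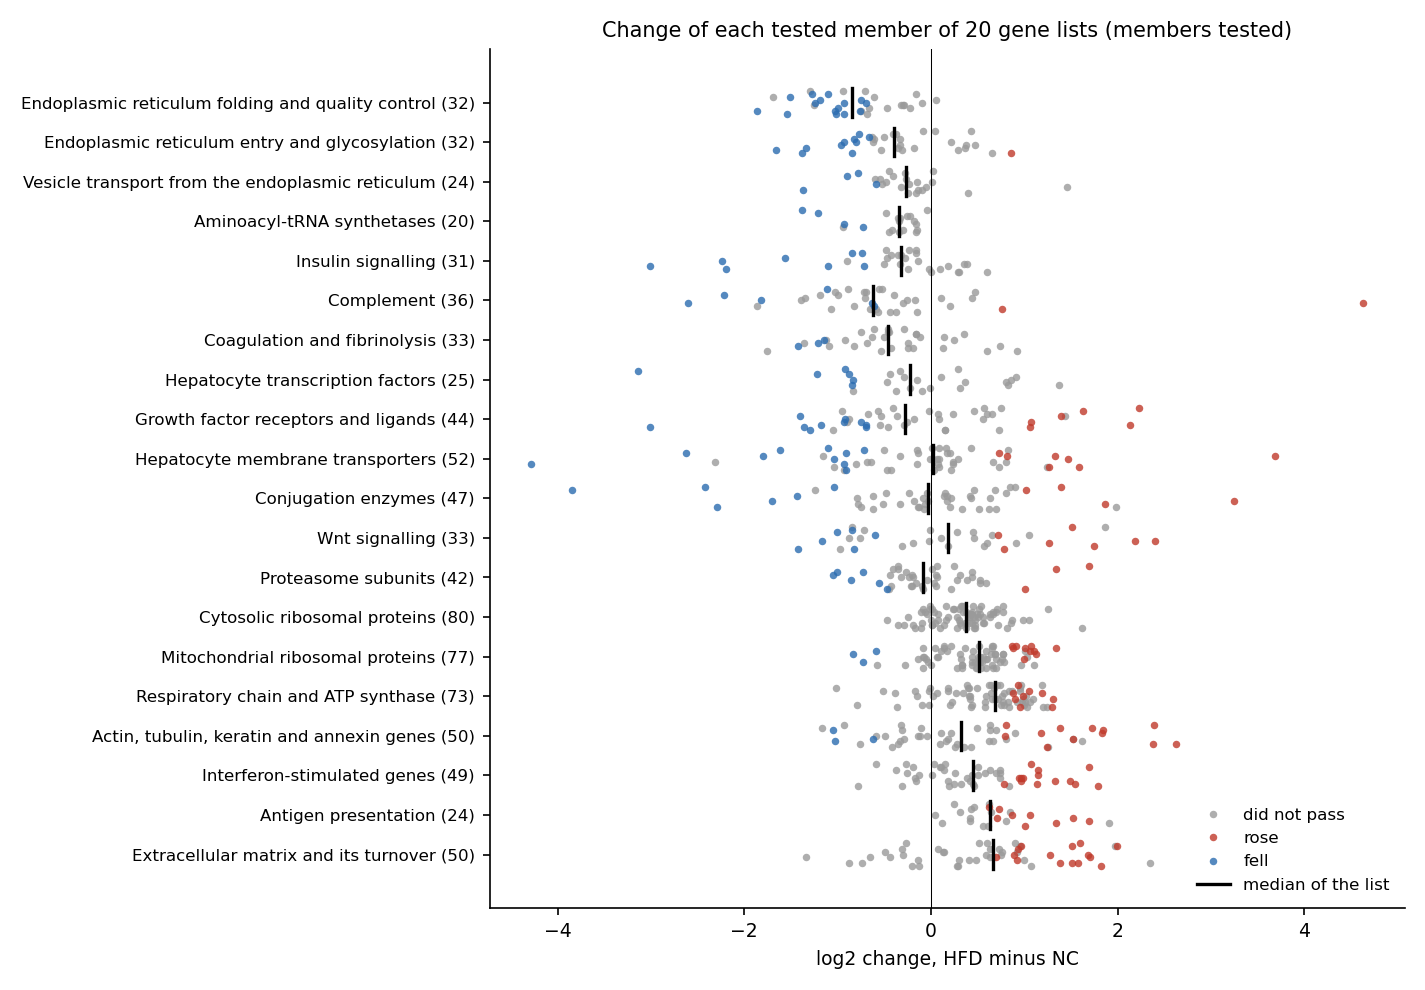
Log2 change, HFD minus NC, of each tested gene in selected function lists (points), with the list median as a bar, rising genes in red and falling genes in blue. Of these 20 lists ER folding has the lowest median (-0.85) and the respiratory chain the highest (0.69), followed by the matrix genes (0.67).

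Markers of cell types put these values in the context of the tissue. The 10 hepatocyte markers, headed by Alb, summed to 113000 to 128000 CPM in NC and 61800 to 84700 CPM in HFD, more than the markers of any other cell type in each library, and 5 of them fell. Markers of sinusoidal endothelial cells summed to 461, 486 and 368 CPM in NC and 170, 258 and 130 CPM in HFD, with 4 of 12 falling and 0 rising (median -1.21). Plpp1, a lipid phosphatase of those cells, fell from 6.30, 8.07 and 5.84 CPM to 0.934, 2.44 and 0.844 CPM (-2.27 ± 0.55, adjusted p = 0.021). Markers of Kupffer cells, the resident macrophages, summed to 508, 492 and 405 CPM and to 200, 368 and 203 CPM, with 2 of 10 falling (median -1.13). Cd163, a scavenger receptor of hemoglobin, fell from 47.6, 41.3 and 31.8 CPM to 5.28, 10.3 and 5.54 CPM (-2.52 ± 0.55, adjusted p = 0.014). Without HFD 1 or HFD 3 no marker of hepatocytes, sinusoidal endothelium or Kupffer cells fell. Without NC 4 the counts were 1, 0 and 1, without NC 2 2, 1 and 1, without NC 5 4, 2 and 2, and without HFD 2 5, 9 and 6. Vascular endothelial markers summed to 105 to 115 CPM in NC and 91.7 to 105 CPM in HFD, with 1 of 8 falling. Of the proliferation markers 0 of 12 and of the neutrophil markers 0 of 8 were called. Yet 7 of the 8 neutrophil markers had changes above 0 (median 1.52). Their sums were low and did not overlap, at 5.82 to 7.58 CPM in NC and 8.68 to 16.3 CPM in HFD.

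Lymphocyte markers were high in HFD 1 and HFD 3, whereas in HFD 2 their sums were within the NC range. Of 12 B and plasma cell markers 8 rose and 0 fell (median 1.93), summing to 46.5, 28.7 and 30.0 CPM in NC and 96.8, 46.3 and 175 CPM in HFD, so that HFD 2 lay below NC 2. Igkc, the kappa light chain constant region, went from 15.9, 13.7 and 10.2 CPM to 56.1, 18.4 and 119 CPM. Of 16 T and NK cell markers 8 rose and 0 fell (median 2.00), summing to 7.55, 8.55 and 17.5 CPM in NC and 41.2, 8.85 and 76.4 CPM in HFD. Without HFD 1, HFD 3, NC 2 or NC 4, 0 of the T and NK cell markers were called, and 13 rose without HFD 2. The B and plasma cell count was 4 without HFD 1 or NC 2, 1 without HFD 3 or NC 4 and 5 without NC 5. Of the 10 adipocyte markers 5 had counts high enough to test, and 4 of these rose, all of which can also be made by other cells. Lep and Plin1, which define adipocytes, had 0 counts in all 6 libraries, and Adipoq had at most 2. The parts of these cells in the results on chemokine, interferon and antigen presentation genes were not tested.

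**Figure D5:**
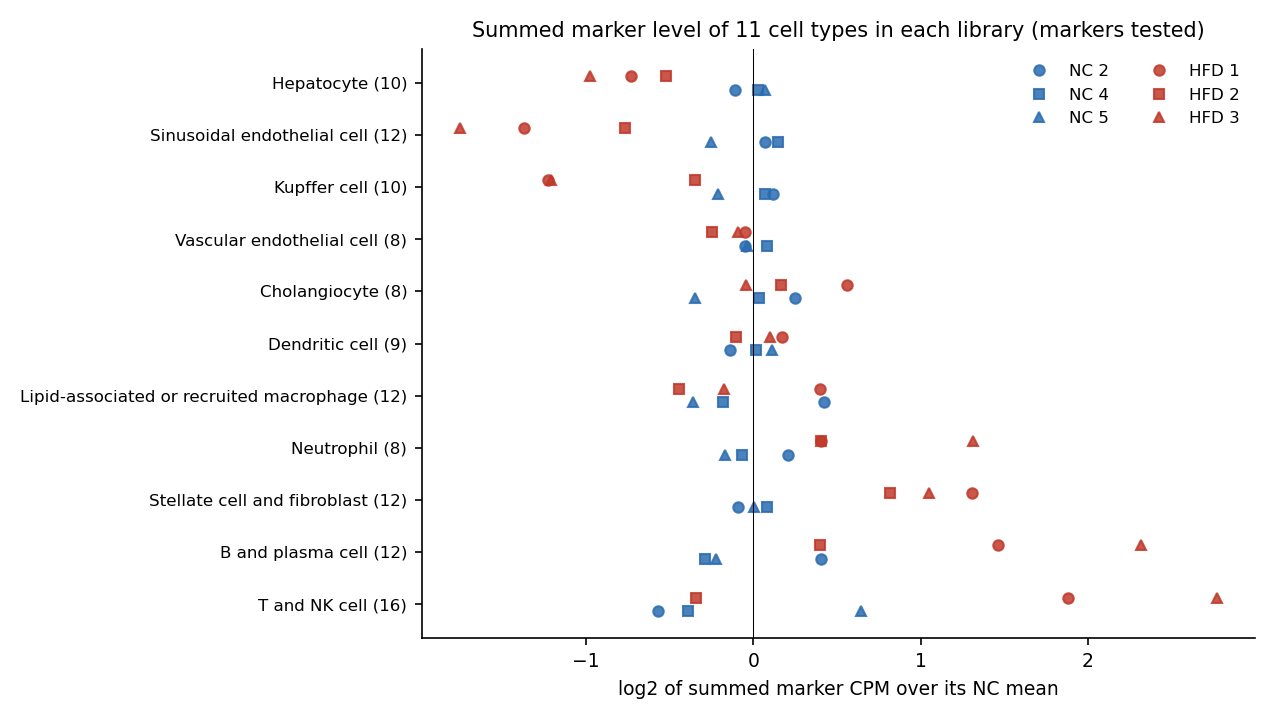
Log2 of the summed CPM of each cell type's markers over its NC mean, in each NC and HFD library (points). Sinusoidal endothelial and Kupffer cell markers are lower in each HFD library than in each NC library, stellate cell markers are higher, and T and NK cell markers are highest in HFD 1 and 3 (41.2 and 76.4 CPM) and within the NC range in HFD 2 (8.85 CPM).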

How the data were processed

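Liver RNA was sequenced in 12 libraries of 4 groups, and the 3 NC and 3 HFD libraries were compared. The authors deposited 1 table of raw read counts per gene, made with featureCounts 2.0.6, per the file headers, together with each gene's exon length and position. The submitters' processing notes also name fastp, HISAT2 2.2.1, DESeq2 1.40.1 and the mm10 build. These sources do not give the annotation release, the strand setting or how reads with several alignments were treated, so near-identical or overlapping genes are uncertain. Counts per gene do not tell isoforms apart. Groups came from the labels.

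Counts were tested in R 4.3.3 with edgeR 4.0.16 (quasi-likelihood F-test, robust, TMM scaling, default low-count filter by group). The model held all 12 libraries and 4 group means, which pools the estimate of the spread, and p-values were adjusted by Benjamini-Hochberg over 18305 genes at 0.05. Scripts were tested on simulated data. Gene classes came from GENCODE M21, matched at the same coordinates for 17777 tested genes. Promoters and their sequences came from a RefSeq table (GRCm38.p6), matched by symbol for 11928 tested genes, and 250 bases before the start were searched.

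The 65 gene lists (46 of functions, 19 of cell types, 1722 tested genes) are described by counts and medians without a set test, and several share genes. The comparison, the lists and the named genes were chosen with earlier results of these data known. The naming rule took the 12 genes rising and 12 falling with the largest log2 change, 6 and 6 with the smallest p, 6 and 6 with the largest CPM difference and up to 3 called members of each list. Genes of the first 3 kinds had to have groups that do not overlap and a mean log2 CPM above 1, and well-known lipid and P450 families, predicted genes and genes already described were left out. The text gives part of these, mostly those called in every fit, and further genes called in every fit or serving as counterparts, chosen after their values were seen. Alternatives were DESeq2 1.42.0, other scaling, no filter, other sets of libraries, removal of the length trend, a 2-fold threshold (glmTreat) and promoter windows of 100 bases. No per-sample column was left unmapped. Some genes are not reported here.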

Additional observations from a re-analysis of the deposited data

How the results depend on the processing

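The number of called genes depended strongly on which libraries were in the model. Leaving out 1 NC or HFD library at a time gave 411 to 3554 called genes, 276 to 1758 rising and 135 to 1796 falling. The lowest counts came without HFD 3 and the highest without HFD 2, and 69.5% of the calls rose without HFD 1, against 53.8% in the main test. The 6 NC and HFD libraries alone gave 4928 calls (2596 rising, 2332 falling), and leaving out HFD+AE 3 and HFD+RE 3 gave 6258 (3231 and 3027). DESeq2 called 4364 genes (2126 of them falling), and a test against a 2-fold change called 93 (57 rising, 36 falling). DESeq2's size factors (2903 calls) and no filter (2797) left the counts near the main 2851. No called gene that was recomputed changed direction in any alternative, over 654 genes and 12 alternatives: 6405 values kept their side of the threshold and 1441 did not. The 654 genes include the 334 core genes, which were chosen for keeping their call and direction in every fit. Their share of the 6405 values was thus fixed in advance. Of the list medians, 669 moved by less than their spread and 111 by more. With promoter windows of 100 bases, GAAANNGAA stood in 13 of 36 interferon-stimulated genes and the ER stress element in 3 of 26 ER folding genes. The causes of these differences were not tested. No paired analysis was possible because the NC numbers (2, 4 and 5) and the HFD numbers (1, 2 and 3) share only the number 2. The depth of 44373214 counts or more per library leaves genes below the filter, most of the 55291, untested, and 3 libraries a group limit what can pass.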

Other observations

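Some of the steadiest changes lay in genes that belong to none of the function lists. Cntnap1, contactin-associated protein 1, which is best known from myelinated nerve, measured 1.36, 1.26 and 1.84 CPM in NC 2, 4 and 5 and 7.98, 6.02 and 7.85 CPM in HFD 1, 2 and 3 (log2 change 2.29 ± 0.25, adjusted p = 0.00064). Tceal8, a transcription elongation factor A-like protein, went from 6.88, 4.68 and 4.19 CPM to 39.1, 26.0 and 33.4 CPM (2.65 ± 0.31, adjusted p = 0.001). Prnp, the prion protein, rose from 23.7, 20.6 and 23.8 CPM to 54.1, 58.6 and 55.2 CPM (1.30 ± 0.17, adjusted p = 0.0016). The HFD values of Prnp lay within a narrow band, and HFD 2, which was nearest to NC over all genes, held the highest of them. Paqr7, a membrane progestin receptor, measured 24.2, 32.2 and 33.3 CPM in NC and 101, 120 and 93.5 CPM in HFD (1.81 ± 0.30, adjusted p = 0.0046), again with HFD 2 highest. Abcd2, a peroxisomal importer of very long chain fatty acids, rose by 1.76 ± 0.31 (adjusted p = 0.0063), and Adora1, an adenosine receptor with 20.1% of its exon bases under a gene on the other strand, by 1.30 ± 0.20 (adjusted p = 0.0039).

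Among falling genes outside the lists, Cadm4, a cell adhesion molecule, went from 17.4, 14.9 and 12.4 CPM to 2.02, 3.04 and 3.08 CPM (-2.45 ± 0.35, adjusted p = 0.0027). Susd4, a membrane protein with sushi domains that dampens complement, measured 46.9, 38.2 and 33.4 CPM in NC and 10.8, 16.1 and 12.4 CPM in HFD (-1.59 ± 0.27, adjusted p = 0.0051). Itih5, a heavy chain of the inter-alpha-trypsin inhibitor family, dropped from 18.2, 16.4 and 13.4 CPM to 4.07, 5.69 and 3.89 CPM (-1.82 ± 0.32, adjusted p = 0.006). Nid2, a basement membrane protein, fell by 1.78 ± 0.33 (adjusted p = 0.0082), unlike the matrix list, in which no gene fell. Slc25a30, a mitochondrial carrier, measured 60.6, 78.1 and 172 CPM in NC and 19.2, 25.4 and 11.2 CPM in HFD (-2.48 ± 0.41, adjusted p = 0.0049). Kyat3, which forms kynurenic acid, fell by 1.26 ± 0.24 (adjusted p = 0.0089). All genes of both paragraphs were called in every fit, and they were chosen after their values were seen.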
